A study of Mus musculus with 18 samples.

Results

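The response of mouse naive CD4 T cells to interleukin 27 (IL-27) was measured after 3 hours of culture. Wild type (WT) cells given IL-27 at 20 ng/ml were compared with WT cells kept in medium alone, with 3 arrays in each group, which makes 6 of the 18 arrays of the series. The cells came from spleen and lymph nodes and were sorted as CD4+CD44-CD62L+CD25-, and all groups carry the strain label C57BL/6J. Total RNA was read on an Affymetrix expression array of the mouse genome. Of its probe sets 34945 carried a single gene symbol, and after a filter on dim probe sets 11971 genes were tested, each through its brightest probe set. The other arrays serve here for 2 settings of the same response: WT cells given IL-6 at 20 ng/ml for 3 hours, and STAT3-deficient cells, labelled Cd4-Cre with the allele STAT3<tm1Dlv>, in medium or with IL-27. Cd4-Cre acts in T cells, which limits the deletion to that lineage. The series calls its replicates biological triplicates and the labels name no animals. Standard errors and p-values measure the spread within groups over all 18 arrays, not only the 6 compared, and part of it may be technical. Levels are given as log2 of the deposited signal plus 32 after quantile normalisation, changes as log2 differences with the standard error (SE) of a limma model and calls were made where its adjusted p was below 0.05.

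IL-27 is a cytokine of antigen-presenting cells, made of the subunits encoded by Il27 and Ebi3. It binds a receptor of Il27ra and Il6st, the signalling chain that it shares with IL-6, and kinases of the JAK family then phosphorylate STAT factors, STAT3 among them. Dimers of phosphorylated STAT factors bind GAS elements, of the form TTCNNNGAA, and complexes that hold IRF9 bind interferon-stimulated response elements, whose core holds repeats of GAAA. In naive T cells IL-27 is known for inducing the Th1 factor T-bet (Tbx21) and the inhibitory ligand PD-L1 (Cd274), and for holding back Th17 cells. The title of the series links IL-27, PD-L1 and IL-17 production.

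The labelled cell type was checked against marker genes. All 7 measured markers of naive CD4 T cells (Cd3d, Cd3e, Cd3g, Cd4, Ccr7, Il7r and Lef1) lay above the array median on each of the 6 arrays. Of 12 measured B cell markers 4 lay below the median on all 6 arrays and 3 (Ms4a1, Ighm and Cd74) above it on all 6. Ighm had a mean level of 12.35 in medium, against 11.19 for Cd4, and its other probe sets had 6.42 to 11.57. Of 13 myeloid markers 7 lay below and 4 (Csf1r, Cd68, Fcgr3 and Cst3) above on all 6 arrays. Of 8 markers of CD8 T and NK cells 1 lay below and 3 (Cd8b1, Klrd1 and Prf1) above. In the list of memory or activated T cells, with 8 measured, Cxcr6 lay below the median on all 6 arrays, and Cd44, Cd69 and Tnfrsf4 lay above it on all 6, although the cells were sorted as CD44-. The mean level of that list was 8.36 to 8.46 in medium and 8.18 to 8.53 with IL-27, and Tnfrsf4 was lowered. The mean level over the B cell list was 7.22 to 7.45 in medium and 7.36 to 7.63 with IL-27, and that of the myeloid list 6.80 to 7.13 and 7.01 to 7.25, and no gene of these lists was called by limma (1 of 12 and 3 of 13 had an unadjusted p below 0.05). The median signal of the 6 arrays ran from 104.4 to 126.8 units, which was also the range of all WT arrays. The STAT3-deficient arrays had higher medians, from 131.5 to 190.3. Stat3 itself, the deleted gene of the other genotype, had levels of 11.54, 11.34 and 11.18 in WT medium and of 10.19, 10.36 and 10.18 in STAT3-deficient medium. With IL-27 the STAT3-deficient arrays had 12.13, 12.18 and 11.72, above every WT medium array and below every WT array with IL-27 (12.87, 12.83 and 13.07), and the change of 1.77 there compares with 1.57 in WT cells. Whether its probe set lies inside the deleted region was not known here, so these levels are no check of the genotype labels.

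IL-27 raised 324 genes and lowered 240. These are 2.71% and 2.00% of the genes tested, shares that serve as background for every group of genes described here. The increases were the larger changes. Of the 324 genes, 162 changed under 2-fold, 117 between 2-fold and 4-fold, 30 between 4-fold and 8-fold, 7 between 8-fold and 16-fold and 8 by more than 16-fold. Of the 240 lower genes 24 reached 2-fold and none reached 4-fold. No array of either group reached into the range of the other in 323 of the raised and in all 240 of the lowered genes, against 22.3% of all genes tested. The median change over all genes was -0.04. Raised genes came from the middle of the range, with a median level of 9.94 in medium against 9.18 for all genes tested, and 31 of them lay below the array median on all 3 medium arrays. Genes of that kind passed the filter on dim probe sets through arrays in which they were brighter. The lowered genes started higher, at a median level of 11.36.

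**Figure D1:**
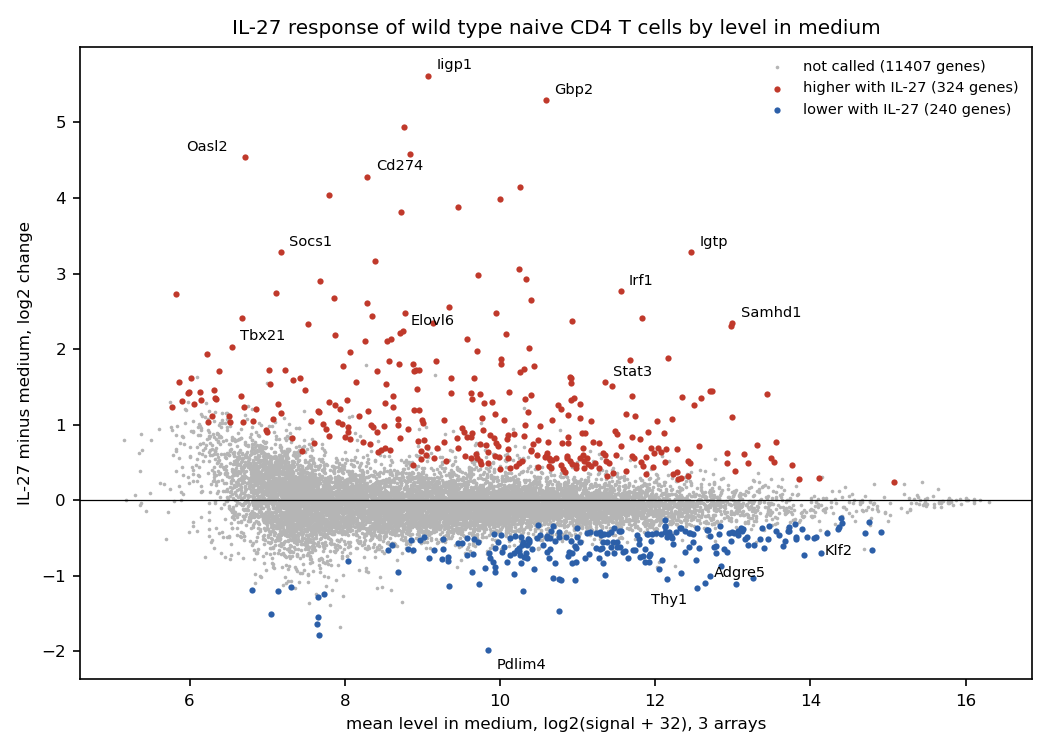
Change with IL-27 (IL-27 minus medium, log2) against the mean level in medium (log2 of signal plus 32, 3 arrays), 1 point per gene. The 324 raised genes reach a change of 5.62 (Iigp1), while the 240 lowered genes end at -1.98 (Pdlim4) and lie mostly at high levels.

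In genes with more than 1 probe set the others mostly changed in the same direction, and were called more often for raised than for lowered genes. Of 295 further probe sets of 169 raised genes, 283 changed in the same direction, 140 of them as calls, and none was called the other way. Of 250 further probe sets of 141 lowered genes, 221 had the same direction and 44 were also called. For genes lowered 2-fold or more, 5 of 7 further probe sets had the same direction and 1 was called. For genes raised 2-fold or more, 105 of 108 had the same direction and 72 were called. The number of decreases depended on single arrays and on the scaling more than the number of increases did. It was 137 without medium array 1, 136 without medium array 2, 149 without IL-27 array 2, 157 without IL-27 array 3 and 127 when arrays were centred on their medians, while the number of increases was 220 to 267 in these 5 settings.

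Promoters of raised genes are shown first, since STAT and IRF factors are known to bind GAS and interferon-stimulated response elements there. RefSeq promoter windows (assembly GRCm38.p6), which run from 250 bases before to 50 bases after each start site, were found for 9650 of the 11971 genes. They were searched for TTCNNNGAA, which reads the same on either strand, and for GAAA, any 2 bases and GAAA again, called the paired GAAA motif here, on both strands. The stretches shown are the last 120 bases before the start site, 5′ to 3′ on the gene's strand, with matches in capitals. Gbp7 lies at chr3:142530216-142530335 (plus strand), Igtp at chr11:58199436-58199555 (plus), Irgm2 at chr11:58214857-58214976 (plus), Irf1 at chr11:53769894-53770013 (plus), Socs1 at chr16:10785537-10785656 (minus) and Cd274 at chr19:29367318-29367437 (plus). They were picked for their motifs, to show both together, each alone, and a strongly raised gene with neither, and are not typical.
Gbp7: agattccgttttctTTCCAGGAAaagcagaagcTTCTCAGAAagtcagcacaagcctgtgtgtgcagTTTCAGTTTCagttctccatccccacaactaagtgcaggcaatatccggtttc
Igtp: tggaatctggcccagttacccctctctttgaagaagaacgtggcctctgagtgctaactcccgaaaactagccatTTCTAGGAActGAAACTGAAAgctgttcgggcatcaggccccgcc
Irgm2: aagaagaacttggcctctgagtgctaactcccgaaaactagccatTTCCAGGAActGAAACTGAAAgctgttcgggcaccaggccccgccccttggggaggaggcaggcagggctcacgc
Irf1: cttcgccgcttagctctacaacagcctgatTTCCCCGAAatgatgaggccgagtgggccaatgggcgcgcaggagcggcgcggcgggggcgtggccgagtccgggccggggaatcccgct
Socs1: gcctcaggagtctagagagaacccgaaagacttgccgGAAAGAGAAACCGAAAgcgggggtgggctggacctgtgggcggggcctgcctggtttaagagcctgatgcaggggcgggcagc
Cd274: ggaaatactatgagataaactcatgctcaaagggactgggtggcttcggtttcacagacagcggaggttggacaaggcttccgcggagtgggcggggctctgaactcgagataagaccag

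In Gbp7 a pair of TTCNNNGAA matches starts 106 and 87 bases before the start site and the paired GAAA match, on the other strand, 53 bases before it. Igtp and Irgm2, neighbouring GTPase genes, carry the same arrangement of a TTCNNNGAA match followed by the paired GAAA motif, at 45 and 34 bases before the start in Igtp and at 75 and 64 bases in Irgm2. When the stretches are lined up without gaps, 87 of 90 bases are identical, so these are not independent examples. Irf1 has a TTCNNNGAA match 90 bases before its start, and Socs1 has paired GAAA matches that overlap each other, at 83 and 77 bases. Cd274 held neither motif in its whole 300-base window, which says nothing about elements elsewhere.

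Over all promoters of tested genes, 6.97% held TTCNNNGAA and 3.04% held the paired GAAA motif. Among the 36 promoters of genes raised at least 4-fold (32 genes) these shares were 22.2% (Wilson 95% interval 11.7 to 38.1) and 38.9% (24.8 to 55.1), and 4 promoters held both while 18 held neither. Of all 354 promoters of raised genes 268, or 75.7%, held neither motif. The shares were 15.4% (10.1 to 22.9) and 17.9% (12.1 to 25.6) among 123 promoters of genes raised 2-fold to 4-fold, and 8.72% (5.51 to 13.5) and 9.74% (6.33 to 14.7) among 195 promoters of genes raised less. Promoters of lowered genes held TTCNNNGAA in 17 of 251, or 6.77% (4.27 to 10.6), and the paired GAAA motif in 1 of 251, or 0.398% (0.0704 to 2.22). Over every promoter in the table, 32851 in all, the shares were 8.30% and 3.44%. These are descriptions of letters in a fixed window, with no test, since a gene can have several windows and gene families share sequence, and the intervals cover counting error only. The motifs overlapped each other in 24 places over the whole table.

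The largest increases were in GTPases that interferon induces and that act against vacuolar pathogens and viruses. All 5 measured guanylate-binding proteins were raised, with a median change of 4.14 against -0.04 over all genes. Gbp2 stood at 10.79, 10.62 and 10.36 in medium and at 16.01, 15.83 and 15.82 with IL-27, with a wide gap between the groups. Its change was 5.29 ± 0.18 (SE, n = 3 per group, 39.3-fold, adjusted p = 1.1e-13). Gbp6, Gbp7, Gbp3 and Gbp8 changed by 4.95 ± 0.12, 4.14 ± 0.11, 4.04 ± 0.22 and 3.99 ± 0.10. Of the 5 measured immunity-related GTPases 4 were raised, with a list median of 3.29. Iigp1, which attacks the vacuoles of intracellular parasites, went from 9.28, 9.04 and 8.91 to 14.74, 14.70 and 14.64, a change of 5.62 ± 0.15 (49.1-fold, adjusted p = 3.39e-15) and the largest of the comparison. Irgm1, a regulator of the other members of its family, changed by 4.58 ± 0.17, Igtp by 3.29 ± 0.12 and Irgm2 by 3.06 ± 0.17. Gm4951, the remaining member, had 1.09 and was not called. Members of these families are close copies of each other, so a probe set may also read a relative, and genes whose probe sets name several symbols, Gbp4, Gbp5, Tgtp1 and Tgtp2 among them, are not analysed here.

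**Figure D2:**
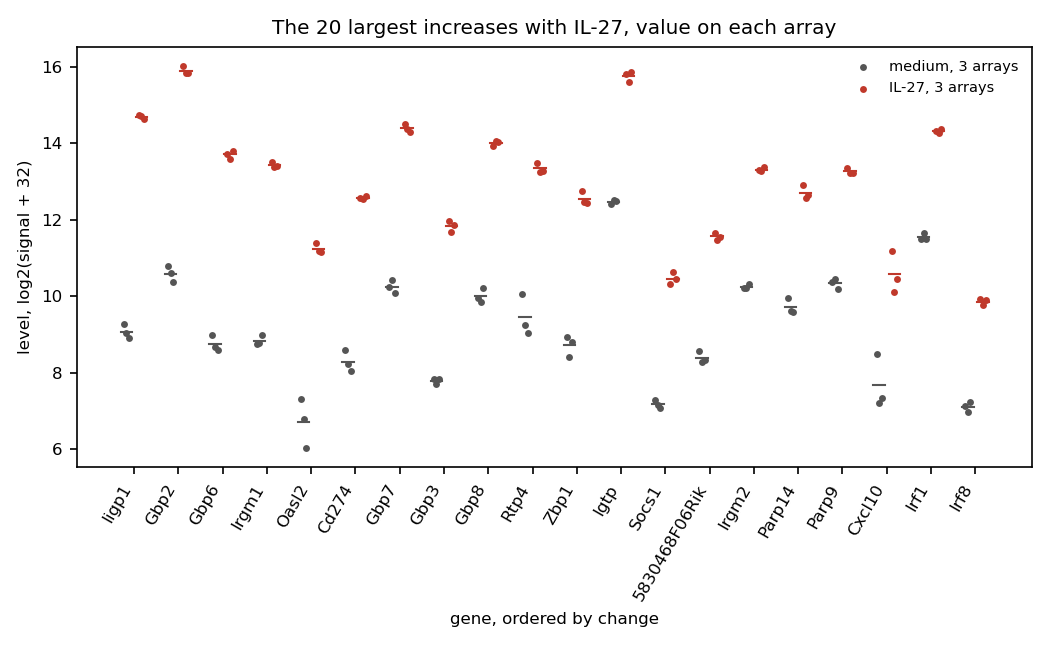
Level on each array (log2 of signal plus 32) of the 20 genes with the largest increases, ordered by change, with medium in grey, IL-27 in red and bars for the group means of 3 arrays. Separate groups were a condition for choosing these genes, whose changes run from 5.62 (Iigp1) to 2.75 (Irf8), and the widest spread within a group is that of Oasl2 and Cxcl10 in medium.

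Enzymes and effectors of antiviral defence followed. Of 8 oligoadenylate synthetases, which make the activator of the RNA-degrading RNase L or are related to those that do, 6 were raised, with a median of 1.59. Oasl2 was at 7.31, 6.79 and 6.03 in medium, below the array median on all 3 arrays, and at 11.39, 11.18 and 11.17 with IL-27, and its change of 4.54 ± 0.97 had the largest SE among the 20 largest increases. Oas2 rose by 2.67 ± 0.21, Oas1a by 2.14 ± 0.25, Oas3 by 1.93 ± 0.33 and Oas1b by 1.24 ± 0.17. Of 33 IFIT and other antiviral effectors 25 were raised and none lowered, with a median of 1.06. Rtp4, a chaperone induced by interferon, rose by 3.88 ± 0.23 (14.7-fold). Ifit1 and Ifit3, which bind viral RNA or its partners, rose by 2.48 ± 0.36 and 2.44 ± 0.23, Samhd1, which depletes deoxynucleotides, by 2.34 ± 0.11, and Ifi47 by 2.31 ± 0.08. Mx1, a member of the same list chosen after its values were seen, had a change of 0.01.

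Detection of nucleic acids and protein modification were represented too. Of 15 nucleic acid sensors and their adaptors 8 were raised, with a median of 0.47, and 5 without medium array 2. Zbp1, a sensor of Z-form nucleic acids, rose by 3.82 ± 0.21 (14.1-fold), Ifih1, the gene of the RNA sensor MDA5, by 1.71 ± 0.27, and its relative Dhx58 by 1.46 ± 0.28. Among 6 measured genes of ISG15 conjugation 3 were raised: the deconjugating protease Usp18 by 1.85 ± 0.27, the activating enzyme Uba7 by 1.62 ± 0.17 and the ligase Herc6 by 1.54 ± 0.19. Of 15 PARP genes, a list that includes the partner ligase Dtx3l, 5 were raised, with a median of 0.16. Parp14 rose by 2.99 ± 0.13, Parp9 by 2.93 ± 0.12, Dtx3l by 2.66 ± 0.14 and Parp12 by 2.61 ± 0.16, while Parp1, the DNA repair enzyme, chosen after its values were seen, had -0.18. Of 28 TRIM ligases 7 were raised, led by Trim12c at 2.13 ± 0.32 and Trim21, the cytosolic antibody receptor, at 1.78 ± 0.10, and the list's median was 0.08. Slfn1 rose by 0.89 ± 0.10 as the only called member of 7 Schlafen genes. Slfn8 had 1.66 ± 0.69 and was not called (adjusted p = 0.246). Its levels were 9.265, 8.997 and 9.227 in medium and 10.73, 10.838 and 10.899 with IL-27, and it was called in 3 of 18 alternatives.

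Interferon regulatory factors, the transcription factors that act on many of these genes, were raised in 6 of 10 measured members, with a median of 1.35. Irf1 went from 11.50, 11.65 and 11.51 to 14.33, 14.27 and 14.38 (2.77 ± 0.09, 6.83-fold, adjusted p = 1.1e-13). Irf8, a factor of myeloid and B cells that T cells can induce, was below the array median on all medium arrays, at 7.13, 6.97 and 7.24, and reached 9.92, 9.78 and 9.89 (2.75 ± 0.18). In both the groups were well apart. Irf9, a DNA-binding factor of the interferon response, rose by 2.01 ± 0.09 and Irf7 by 1.86 ± 0.15. Irf4, which takes part in effector differentiation, rose by 1.69 ± 0.45 (adjusted p = 0.037), a call that was lost without any 1 of the 6 arrays (adjusted p up to 0.155, without medium array 1). Its other probe set had 0.78 and was not called (adjusted p = 0.385), and the call was also lost with the mean of all probe sets. Among STAT genes, 2 of 6 were raised: Stat2 from 8.71, 8.17 and 7.92 to 10.38, 10.34 and 10.40 (2.11 ± 0.17) and Stat3 from 11.54, 11.34 and 11.18 to 12.87, 12.83 and 13.07 (1.57 ± 0.12). Stat4, Stat5a and Stat6 had -0.20, -0.09 and -0.24.

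The receptor side moved less and in both directions. Of 14 receptor chains and JAK kinases 3 were raised and 2 lowered, with a median of 0.02. The raised count was 1 without medium array 2 or IL-27 array 3, and none was lowered with median centring. Il27ra, the specific chain of the IL-27 receptor, fell from 10.46, 10.26 and 10.35 to 9.91, 9.85 and 9.54 (-0.59 ± 0.14, adjusted p = 0.0158), and its call was lost without medium array 1, without IL-27 array 3 (adjusted p = 0.107) and with median centring. Il6st, the shared chain, had -0.23 ± 0.12 and was not called. Jak1 fell by 0.51 ± 0.09, a call lost with median centring (adjusted p = 0.125), while Jak3, which serves receptors of the common gamma chain, rose by 1.30 ± 0.22. Il12rb2, the inducible chain of the IL-12 receptor, lay at 7.01, 6.59 and 5.44 in medium and at 7.86, 7.39 and 7.82 with IL-27, an increase of 1.34 ± 0.36 (adjusted p = 0.0386) that lost its call in 8 of 18 alternatives (adjusted p up to 0.174, without medium array 3). Ifnar2, a chain of the type I interferon receptor, rose by 0.89 ± 0.19, a call lost without medium array 2 (adjusted p = 0.0645) or IL-27 array 3.

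Several inhibitors of the pathway were raised. Of 19 SOCS genes and other feedback inhibitors 5 were raised, 14 were not called, and the median was 0.13. Socs1, which blocks JAK kinases, was at 7.30, 7.15 and 7.09 in medium, below the array median on all 3 arrays, and at 10.31, 10.63 and 10.44 with IL-27 (3.28 ± 0.20, 9.74-fold, adjusted p = 1.32e-09). Socs3, which binds the Il6st chain, went from 9.15, 8.98 and 9.27 to 11.45, 11.66 and 11.31 (2.34 ± 0.15). Usp18, which also restrains the type I interferon receptor, is given above with the ISG15 enzymes. Cish rose by 0.69 ± 0.16, a call lost without medium array 3, IL-27 array 1 or IL-27 array 3 (adjusted p up to 0.103). The list's count was 3 without any of these 3 arrays and with median centring. The PIAS genes had values between -0.40 (Pias3) and 0.24, and none was called.

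Antigen presentation by MHC class I was raised in its machinery. Of 20 measured genes 12 were raised and none lowered, with a median of 0.86 against -0.04 over all genes. Nlrc5, the transactivator of class I genes, rose from 11.11, 10.89 and 10.77 to 13.32, 13.22 and 13.35 (2.38 ± 0.12, adjusted p = 3.99e-11). The immunoproteasome subunits Psmb9 and Psmb10 rose by 1.88 ± 0.16 and 1.51 ± 0.11, the peptide editor Tapbpl by 1.42 ± 0.15, and the non-classical gene H2-T24 by 1.59 ± 0.26. The classical chains H2-K1 and H2-D1 and their partner B2m, chosen after their values were seen, had 0.01, 0.07 and 0.15 and were not called. For contrast, 2 of 26 constitutive proteasome subunits were raised, Psma7 by 0.62 ± 0.07 and Psma2 by 0.49 ± 0.12, the second a call lost without medium array 3, without IL-27 array 1 and with median centring (adjusted p up to 0.275). That list had a median of 0.04. Of 15 class II genes and regulators 1 was raised, the lysosomal protease Ctss by 0.61 ± 0.11.

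Cd274, the gene of PD-L1, was among the 20 largest increases. Its level was 8.60, 8.22 and 8.05 in medium and 12.58, 12.54 and 12.61 with IL-27. The 3 IL-27 arrays lay close together and far above medium. The change was 4.28 ± 0.17 (19.5-fold, adjusted p = 2.39e-12) and was called in all 18 alternatives, with values from 4.15 to 4.48. The related ligand PD-L2, encoded by Pdcd1lg2, had 0.53 and was not called. Of 16 B7 and TNF superfamily ligands 3 were raised: Cd274, Tnfsf8, the ligand of CD30, by 1.47 ± 0.23 and Lgals9, a galectin that binds inhibitory receptors, by 0.75 ± 0.13. The list's median was 0.02. Tnfsf4 and Cd86 had -0.78 and 0.82 without passing the test, while the other probe set of Cd86 had 1.00 and passed (adjusted p = 0.041).

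Some receptors that modulate T cell activation were lowered. Of 21 co-inhibitory and co-stimulatory receptors 6 were lowered and none raised, with a median of -0.06 against -0.04 over all genes. Cd96, an inhibitory receptor for nectins, fell by 0.83 ± 0.13, Cd5, which dampens T cell receptor signals, by 0.79 ± 0.11 and the related Cd6 by 0.76 ± 0.13. Cd5 had levels of 12.44, 12.49 and 12.65 in medium and of 11.52, 11.95 and 11.76 with IL-27, which did not overlap. Tnfrsf18 and Tnfrsf4, the genes of GITR and OX40, fell by 0.64 ± 0.14 and 0.55 ± 0.15, calls lost without medium array 1 (adjusted p = 0.0636 for Tnfrsf18) and, for Tnfrsf4, without 5 of the 6 arrays taken singly (adjusted p up to 0.175). Pdcd1, the receptor of PD-L1, had -0.67 and Tnfrsf14 had 0.75, and neither was called.

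Genes of T helper programs changed in few members. In the Th1 list 2 of 10 measured genes were raised, Tbx21 and Il12rb2, and the median was 0.46. The count was 1 on leaving out any of the arrays but medium array 1. Tbx21 was below the array median on all 3 medium arrays, at 6.64, 6.84 and 6.14, and rose to 8.73, 8.41 and 8.59 (2.03 ± 0.27, 4.10-fold, adjusted p = 5.73e-05). Cxcr3, Runx3 and Il18r1, other genes of the program, had 0.47, 0.64 and 0.72, and Eomes had 0.07. In the Th17 list Irf4 and Batf were raised, 2 of 8, and Rora and Ahr had -0.45 and 0.12. Batf, an AP-1 factor needed for several effector types, rose by 0.87 ± 0.14. In the follicular helper list Bcl6, the repressor that defines the lineage, rose by 1.41 ± 0.16. Lef1 fell by 0.41 ± 0.11 (a call lost in 9 of 18 alternatives, adjusted p up to 0.186 without IL-27 array 1). Il21, Icos and Maf had 0.49, 0.45 and -0.04 without a call. Another probe set of Icos, also at 0.45, passed (adjusted p = 0.0458). None of the 3 measured Th2 genes was called by limma (2 had an unadjusted p below 0.05), Gata3 among them at -0.48, and of 12 regulatory T cell and IL-10 genes Tnfrsf18 was the one called. Ifng, Il10 and Foxp3 are not analysed here.

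**Figure D3:**
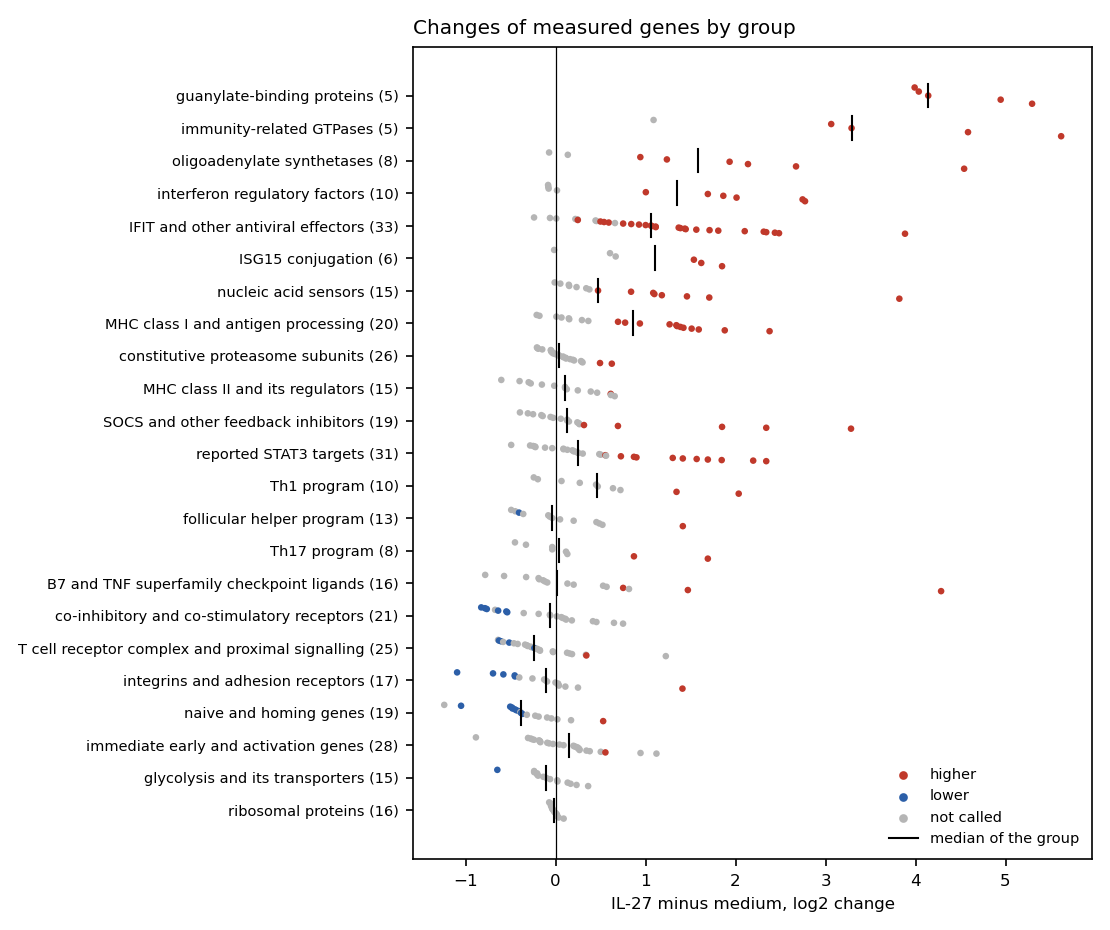
Change of each measured gene (IL-27 minus medium, log2) in 23 gene groups, with the number of measured genes in brackets, called genes in colour and the group median as a black bar. Groups of interferon response genes have medians up to 4.14, while the naive and homing genes have a median of -0.38 and ribosomal proteins lie between -0.07 and 0.09.

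Of 31 genes reported as STAT3 targets 11 were raised and none lowered, with a median of 0.25. Besides Socs3, Stat3, Irf4, Bcl6, Batf and Jak3 these included Pim2, a survival kinase, which went from 10.26, 9.92 and 10.06 to 12.16, 12.33 and 12.34 (2.20 ± 0.12), and Bcl3, an atypical regulator of NF-kB, which rose by 1.85 ± 0.15. Mcl1, an anti-apoptotic protein, rose by 0.73 ± 0.13 as the only called member of 13 BCL2 family genes, and Ccnd2 by 0.90 ± 0.17 as the only called gene of 25 in the cell cycle list. All 7 probe sets of Ccnd2 and all 6 of Mcl1 had positive changes. Pim1 and Pim3, the other kinases of that family, had 0.20 and -0.28. In the death receptor list 4 of 19 were raised, among them Pml, a nuclear body protein, by 1.81 ± 0.16, the receptor Fas by 1.34 ± 0.27 and Casp8 by 0.64 ± 0.08, and the count was 2 with median centring (adjusted p = 0.0593 for Casp8).

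Genes of the naive state were lowered by small amounts. Of 19 naive and homing genes 9 were lowered and 1 raised, with a median of -0.38 against -0.04 over all genes. The largest was Dapl1, a marker of resting naive T cells, which fell from 10.910, 10.978 and 10.999 to 9.826, 10.001 and 9.908 (-1.05 ± 0.12, adjusted p = 1.12e-05). Klf2, the factor that maintains homing receptors, went from 14.15, 14.02 and 13.97 to 13.54, 13.48 and 13.61 (-0.50 ± 0.07), and Il7r, the IL-7 receptor, from 14.72, 14.63 and 14.78 to 14.38, 14.09 and 14.35 (-0.43 ± 0.09). Foxo1 and Ccr7 fell by 0.48 ± 0.12 and 0.38 ± 0.07, and the call of Foxo1 was lost in 7 of 18 alternatives, without medium array 2 among them (adjusted p = 0.0932). With median centring the list had 1 lowered gene, and the adjusted p of Klf2, Il7r and Ccr7 became 0.124, 0.192 and 0.281 with the direction kept. Igfbp4, the member that went up, rose by 0.53 ± 0.11, again not a call with median centring (adjusted p = 0.229). The naive CD4 marker list shares genes with the other lists. Its mean level was 13.44 to 13.56 in medium and 13.08 to 13.09 with IL-27, with 4 of 7 genes lowered, 2 without IL-27 array 2 and none with median centring. The 4 were Cd3g, Ccr7, Il7r and Lef1, each also given under another list, so this is not a separate observation. The part of the marker list in these decreases was not tested. In bulk RNA fewer cells of a type and less RNA per cell cannot be told apart.

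A minority of surface and signalling genes of T cells were lowered. Of 25 genes of the T cell receptor complex and its proximal signalling 4 were lowered and 1 was raised, with a median of -0.24. The raised one was the kinase gene Txk, named here for its call. Sla had the largest change of the list, 1.225, and was not called (adjusted p = 0.0561), but was called in 7 of 18 alternatives. Its further probe sets had 1.00 to 1.18, with adjusted p from 0.00207 to 0.32. Cd3g fell from 13.72, 13.69 and 13.54 to 13.13, 13.02 and 12.97 (-0.61 ± 0.09) and Dgkz, which terminates diacylglycerol signals, from 13.45, 13.43 and 13.32 to 12.78, 12.77 and 12.77 (-0.63 ± 0.08). Cd4 and Themis had -0.58 and -0.64 without a call. With median centring Cd3g was no longer called (adjusted p = 0.0621). Of 17 integrins and adhesion receptors 5 were lowered and 1 raised, with a median of -0.11, and 2 were lowered with median centring. Adgre5, the gene of CD97, fell from 12.74, 12.57 and 12.64 to 11.56, 11.63 and 11.47 (-1.09 ± 0.09, adjusted p = 1.4e-07) and Itga4, the alpha4 integrin chain, by 0.69 ± 0.12, whereas its other 3 probe sets had -0.13 to -0.30 and were not called. Icam1, the ligand of LFA-1, rose by 1.41 ± 0.14.

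The largest decreases, chosen among genes whose groups did not overlap, did not fall into 1 family. Pdlim4, a cytoskeletal adaptor, went from 9.56, 10.21 and 9.75 to 8.11, 6.96 and 8.50 (-1.98 ± 0.30, 3.96-fold, adjusted p = 0.00023). Epas1, a hypoxia-inducible factor, went from 10.99, 10.77 and 10.53 to 8.86, 9.42 and 9.62 (-1.47 ± 0.20), and Thy1, a surface glycoprotein of T cells, from 12.35, 12.69 and 12.59 to 11.08, 11.70 and 11.38 (-1.15 ± 0.19). Pde2a, which degrades cyclic nucleotides, fell by 1.11 ± 0.15 and its other probe sets had -1.34 and 0.12. Ssbp3 and Emp3 fell by 1.20 ± 0.17 and 1.05 ± 0.19. Ramp1, which modifies the receptor of the peptide CGRP, fell by 1.11 ± 0.18, and its other probe set had 0.06. With the mean of both it was not called (adjusted p = 0.302).

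Other decreases of this size were less firm. The calls of Itpripl2 (-1.78 ± 0.48), Qpct (-1.63 ± 0.43), Ndufaf6 (-1.55 ± 0.43) and Golm1 (-1.14 ± 0.29) had adjusted p from 0.029 to 0.0435 and were each lost on leaving out at least 5 of the 6 arrays, 1 at a time. Itpripl2 had an adjusted p of 0.143 without IL-27 array 1 and Ndufaf6 of 0.172 without medium array 1. Qpct and Golm1 had 0.132 and 0.109 without IL-27 array 3. Golm1 lay at 9.32, 9.41 and 9.31 in medium and at 8.30, 8.24 and 8.08 with IL-27. Its call was kept when the model held only the 6 arrays compared or only WT arrays. Nucb2 (-1.27 ± 0.29) and Adcyap1r1 (-1.24 ± 0.32) lost theirs without medium array 1, and also without IL-27 array 3 for Nucb2 and IL-27 array 2 for Adcyap1r1 (adjusted p = 0.169 in the latter). Samt4, Opn3 and the unnamed gene 4933402N03Rik, at -1.19, -1.15 and -1.20, had adjusted p up to 0.203, 0.207 and 0.178 over the alternatives, the highest of Opn3 without medium array 1. Markers of CD8 T and NK cells were among the decreases: Ccl5, a chemokine of memory and CD8 T cells, went from 7.23, 7.01 and 6.91 to 5.30, 5.74 and 5.59 (-1.50 ± 0.27), below the array median on all 6 arrays, and Klrd1 from 10.59, 10.99 and 10.78 to 9.60, 9.79 and 9.82 (-1.05 ± 0.16). With Ccl5 the call did not hold when the model held only the 6 arrays compared (adjusted p = 0.076). The remaining 6 of the 8 measured genes of that marker list were not called, with Cd8a and Cd8b1 at 0.18 and 0.15, and the list mean was 7.75 to 8.10 in medium and 7.78 to 8.04 with IL-27. Their part in the decreases was not tested.

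**Figure D4:**
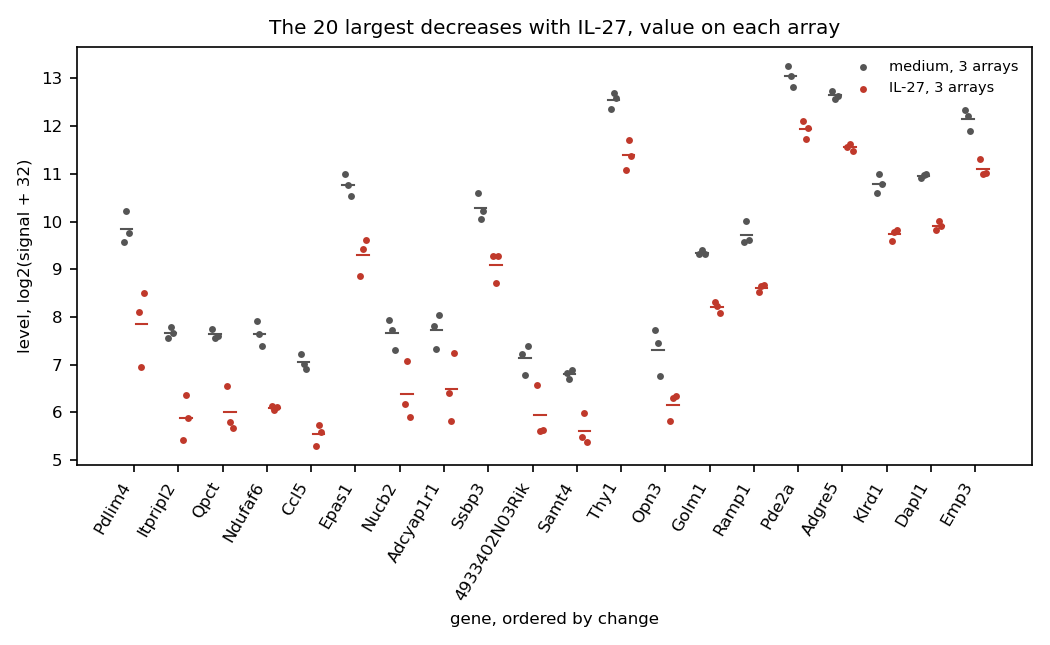
Level on each array (log2 of signal plus 32) of the 20 genes with the largest decreases, ordered by change, with medium in grey, IL-27 in red and bars for the group means of 3 arrays. Separate groups were a condition for choosing these genes, whose changes run from -1.98 (Pdlim4) to -1.05 (Emp3). Several of them lie at low levels in both groups.

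In other programs few genes were called. Of 28 immediate early and activation genes Junb was the one called, at 0.55 ± 0.13, and not without medium array 3, IL-27 array 1 or IL-27 array 2 (adjusted p up to 0.168, with median centring). Jun had 0.94 ± 0.41 without a call, while its other probe set had 1.10 ± 0.17 and passed (adjusted p = 0.000489). Of 18 NF-kB genes Bcl3 and Birc3 were raised and Tnip1 was lowered (with median centring Birc3 and Tnip1 had adjusted p of 0.173 and 0.211), of 15 glycolysis genes the glucose transporter Slc2a3 fell by 0.65 ± 0.17 (adjusted p = 0.16 without IL-27 array 1), and of 17 chemokines and chemokine receptors 1 was raised. That was Cxcl10, a ligand of CXCR3, at 8.49, 7.21 and 7.34 in medium and 11.19, 10.12 and 10.46 with IL-27 (2.91 ± 0.42, adjusted p = 0.000145). In the list of fatty acid and cholesterol synthesis 1 of 18 was raised, the elongase Elovl6, from 8.75, 8.65 and 8.83 to 11.15, 10.95 and 10.87 (2.24 ± 0.13, 4.73-fold, adjusted p = 3.33e-10), while Fasn and Srebf2 had -0.29 and -0.30. Limma called none of 18 heat shock and stress genes and none of 16 genes of ribosomal proteins (2 and 0 had an unadjusted p below 0.05), with values from -0.38 to 0.47 and from -0.07 to 0.09.

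The IL-27 response was set against that to IL-6, which signals through the same Il6st chain. IL-27 and IL-6 arrays of WT cells were compared directly, and 3.14% of the genes tested differed. Of the 324 raised genes 103 were higher with IL-27 than with IL-6 and 33 were lower, and of the 240 lowered genes 34 were higher and 6 lower. Both responses were measured from the same 3 medium arrays, so their changes are given side by side. Cd274 changed by 4.28 with IL-27 and 0.60 ± 0.17 with IL-6, and the direct difference was 3.68 ± 0.17 (adjusted p = 7.51e-11). Irf8 had 2.75 and 0.59 ± 0.18 (difference 2.16 ± 0.18), Usp18 1.85 and 0.19 ± 0.27 (difference 1.66 ± 0.27), Tapbpl 1.42 and 0.17 ± 0.15 (difference 1.25 ± 0.15), and Pml 1.81 and 0.31 ± 0.16 (difference 1.49 ± 0.16). All 5 guanylate-binding proteins and the 4 raised immunity-related GTPases were higher with IL-27, with list medians of 4.14 and 3.29 against 2.32 and 1.24 with IL-6.

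Other genes answered IL-6 as much or more. Socs3 changed by 2.34 with IL-27 and 4.18 ± 0.15 with IL-6 (difference -1.84 ± 0.15, adjusted p = 2.37e-07), Bcl3 by 1.85 and 2.84 ± 0.15 (difference -0.99 ± 0.15), Elovl6 by 2.24 and 3.85 ± 0.13 (difference -1.61 ± 0.13) and Igfbp4 by 0.53 and 2.91 ± 0.11 (difference -2.38 ± 0.11). Of the 31 reported STAT3 targets 11 were lower and 1 was higher with IL-27 than with IL-6. The differences of Pim2 (0.14 ± 0.12), Stat3 (-0.31 ± 0.12) and Bcl6 (-0.38 ± 0.16) were not called. Among lowered genes, Adgre5, Cd5 and Itga4 were less reduced by IL-27 than by IL-6, with differences of 0.73 ± 0.09, 0.85 ± 0.11 and 1.13 ± 0.12. Klf2 had -0.50 and -0.62 ± 0.07, and the difference of 0.11 ± 0.07 was not called.

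The response was compared between genotypes through the interaction term. Without STAT3 the IL-27 effect differed from that in WT cells in 2 genes, 0.0167% of those tested, and both were among the 324 raised. The SE of such a difference is larger than that of a single change. Genotype also goes together with the median signal, which was higher on every STAT3-deficient array than on any WT array. The part of this in the comparison was not tested. For the GTPases the list medians of the IL-27 effect without STAT3 were 4.36 and 3.46. Cd274 changed by 4.53 ± 0.17 there, a difference from WT of 0.25 (adjusted p = 0.801), and Tbx21 by 2.92 ± 0.27, a difference of 0.88 (adjusted p = 0.677). Socs3 and Bcl3 changed by 1.43 ± 0.15 and 0.73 ± 0.15, differences of -0.91 (adjusted p = 0.372) and -1.11 (adjusted p = 0.141), and Batf had -0.10 ± 0.14, a difference of -0.97 (adjusted p = 0.154). A p above the threshold does not show that these effects are alike.

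The 2 genes past the threshold were Elovl6 and Xaf1, the second chosen by this test. Elovl6 had levels of 7.97, 8.09 and 8.40 in STAT3-deficient medium and of 8.56, 8.65 and 8.82 with IL-27, a change of 0.53 ± 0.13 against 2.24 in WT cells, and the difference was -1.72 ± 0.18 (adjusted p = 9.08e-05). It was called in all 16 alternatives that gave a value. Its other probe set had a difference of -1.47 ± 0.27, which was not called. Xaf1, an interferon-induced pro-apoptotic gene, had 7.31, 6.86 and 6.78 in WT medium and 8.12, 7.84 and 7.77 with IL-27, and 10.36, 10.15 and 10.36 in STAT3-deficient medium and 13.45, 13.25 and 13.50 with IL-27. The difference between its changes was 2.18 ± 0.21 (adjusted p = 3.83e-05). Its other probe set went the opposite way, from 9.25 to 12.27 in WT and from 7.27 to 8.81 in STAT3-deficient cells, with a difference of -1.47 ± 0.25 that was not called, and with the mean of both probe sets the difference was 0.35 (adjusted p = 0.728). Read through that probe set, the change of Xaf1 in WT cells was 3.02 in place of 0.93, and the call of 0.93 did not hold with only the 6 arrays compared (adjusted p = 0.0591).

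**Figure D5:**
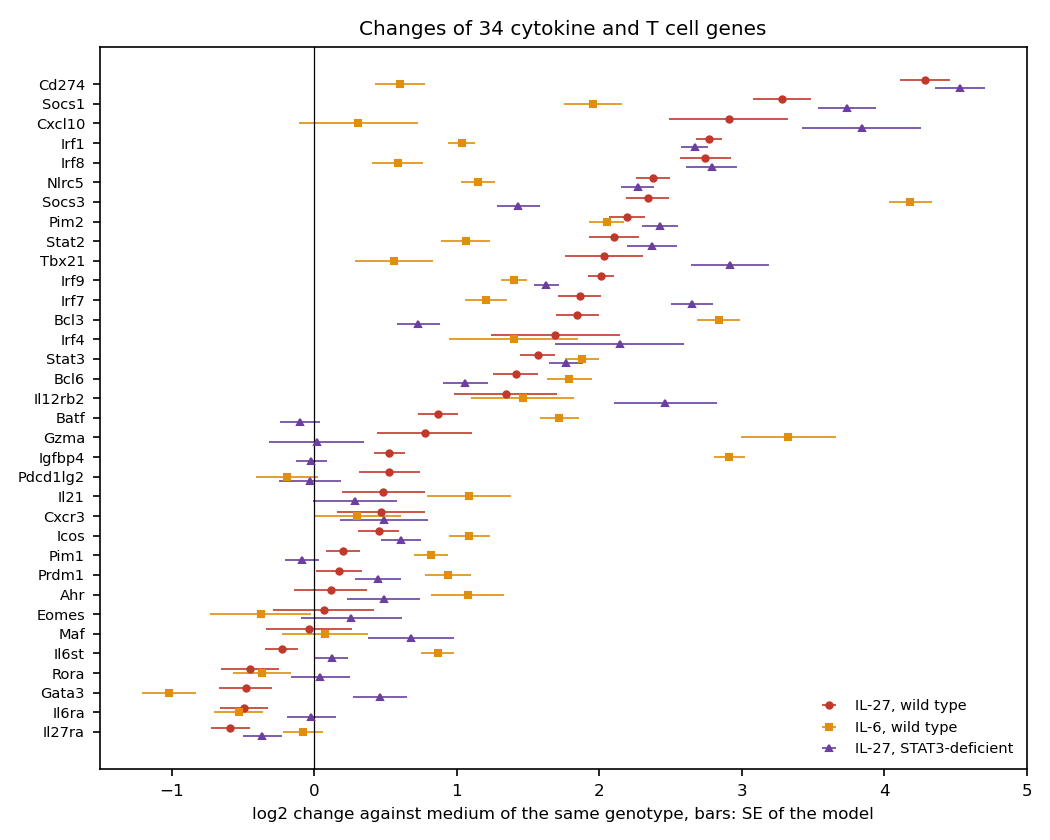
Log2 change against medium of the same genotype for 34 cytokine and T cell genes, with IL-27 in wild type (red circles), IL-6 in wild type (orange squares) and IL-27 in STAT3-deficient cells (purple triangles), and bars for the SE of the model with 3 arrays per group. Cd274 lies at 4.28, 0.60 and 4.53, Socs3 at 2.34, 4.18 and 1.43 and Batf at 0.87, 1.72 and -0.10.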

How the data were processed

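The deposited values are intensity, a linear signal per probe set of the array, and the authors used GCOS, per the submitters' processing notes. Its version and summarisation algorithm were not given in the sources used here. Every array had a trimmed mean of 500, so arrays had been scaled. Control probe sets (64 of 45101) were left out, and 932 probe sets with several symbols and 9160 with none were not used. Signals were transformed as log2 of signal plus 32, which shrinks changes of dim genes, and quantile normalised over the 18 arrays. A probe set was kept above its array's median on at least 3 arrays (26860 kept), and each gene was read from its brightest probe set. A limma model (version 3.58.1, R 4.3.3) with a mean for each group took in every array (12 residual degrees of freedom, variance trend), with Benjamini-Hochberg adjustment over all genes, two-sided. The median SE was 0.185. The script was tested on simulated data with known changes. It recovered 33.1% of 1.5-fold, 66.9% of 2-fold and 95.8% of 4-fold changes, and 5.1% of its calls were false. Small changes were therefore often missed there, and a gene without a call is not shown to be unchanged. The number of arrays limits the precision.

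Named genes were taken by a rule, unless stated otherwise: the 20 most increased and 20 most decreased calls without overlap between the groups' arrays, the 34 that were measured of 42 listed T cell and cytokine genes, and at most 5 of each gene list. The comparison, the members and the lists were chosen with earlier results of these data known. Alternatives covered scaling, constant, filter, probe set choice, variance model, arrays fitted, a block by sample number and leaving out each array.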

Additional observations from a re-analysis of the deposited data

Results flagged for a closer look

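The effect of IL-27 on Elovl6 differed between genotypes by the interaction term, with -1.72 (log2, STAT3-deficient minus wild type), from 2.24 in wild type to 0.53 without STAT3. The effect on Xaf1 also differed by that test, with 2.18, while its other probe set gave a difference of -1.47 without a call.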

How the results depend on the processing

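In 18 alternatives none of the 121 called named genes changed direction, and 83 of them were called in every alternative that gave a value. Of the 38 others 12 were higher and 26 lower with IL-27. Some named genes that were not called, such as Eomes (-0.36 to 0.33) and Maf (-0.23 to 0.27), changed sign. At least 1 alternative gave a call to 35 of the 109 named genes that the main model did not call. Sla and Cd4 gained theirs in 7 of 18 alternatives each. For these 35 genes the lack of a call thus depended on the processing. The 324 increases became 220 with median centring and 455 with array weights, and 244 to 285 on leaving out 1 array. The 240 decreases became 127 with median centring, 476 with array weights, and 136 to 188 on leaving out 1 array. Median centring moved the median change of all genes from -0.04 to -0.10 and kept 214 of the increases and 115 of the decreases. With the sample number as a replicate block within genotype there were 406 increases and 415 decreases, which hold 319 and 235 of the originals. Deviations from the group means had correlations of -0.02 to 0.22 between same-numbered WT samples of different groups. Between samples with different numbers they were -0.22 to 0.09. Whether the numbers mark a shared animal or day was not tested, and the main model did not treat them as pairs. The 376 genes that differed between IL-27 and IL-6 became 205 with median centring and 588 with the replicate block. They became 286 to 376 on leaving out 1 WT array of medium or IL-27. The 2 genes with a genotype difference became 1 with the mean of all probe sets and 13 with array weights. They became 2 to 3 on leaving out 1 of the same WT arrays. IL-6 and STAT3-deficient arrays were not left out, so how far these 2 counts depend on them was not tested. The causes of these shifts were not tested. Signal near the array median limits the dim genes.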
